A study of Mus musculus with 35 samples.

Results

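The nuclear-encoded subunits of the mitochondrial respiratory chain were followed in the small intestine of mice given a PPARα agonist, to ask whether their mRNAs moved together with those of fatty acid oxidation. Probesets, the sets of probes that report 1 transcript on the array, were taken when their only gene symbol began with Nduf (complex I), Sdh (complex II), Uqcr (complex III), Cox4 to Cox8 (complex IV) or Atp5 (ATP synthase) followed by a subunit letter or number, or was Cyc1 or Cycs. This gave 167 probesets of 81 genes among 45037 probesets. Of these, 134 probesets of 73 genes were expressed, which means that their mean exceeded log2 5 in at least 1 group of mice, as 15384 probesets of 8626 genes did in all.

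The respiratory chain sits in the inner mitochondrial membrane. Complexes I and II take electrons from NADH and succinate, ubiquinone carries them to complex III, cytochrome c carries them on to complex IV, which reduces oxygen, and ATP synthase uses the proton gradient that results. Beta-oxidation of fatty acids feeds the same chain, through NADH and through the electron transfer flavoprotein and its dehydrogenase, Etfdh. PPARα is a nuclear receptor for fatty acids and fibrate-like drugs that is best known for inducing genes of fatty acid oxidation.

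Wild-type mice (129S1/SvImJ) and PPARα-null mice (129S4/SvJae) were males 4 months old. They had eaten an AIN76A diet with olive oil for 2 weeks and fasted for 4 h. Each received 400 μl by gavage and was killed 6 h later, and the full-length small intestine of 1 mouse was measured on 1 array. WY14643, a synthetic PPARα agonist, was given as a 0.1% suspension in 0.5% carboxymethyl cellulose to 4 wild-type and 4 null mice. EPA was given as trieicosapentaenoin to 5 and 5 mice, DHA as tridocosahexaenoin to 5 and 4, and OA as triolein to 4 and 4, each of them an oil in which a single fatty acid fills every position of the triacylglycerol. The genotypes were of different 129 substrains, no untreated mice were analysed here, and WY14643 came without a fat load. A difference between genotypes therefore cannot be told apart from one between substrains, and a difference between WY14643 and OA not from one between vehicles. In RNA of the whole organ, fewer cells of a type and less RNA per cell cannot be told apart either.

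All 15 probesets of the enterocyte marker list were expressed, with group means between 12.885 and 13.119 on the log2 scale, and pancreatic acinar markers were present too, with array means from 3.626 to 13.734. On 3 arrays the genotype label was not borne out. On the probeset for Cyp4a10 and Cyp4a31, PPARα target genes, the other wild-type arrays read 8.15 to 12.75 and the other null arrays 1.36 to 2.5, whereas wild-type EPA replicate 5 read 1.81, null EPA replicate 5 read 9.91 and null OA replicate 1 read 10.61. These arrays were kept under their labels. Counts of called respiratory chain probesets that use them are also given without them. Other values are given with these arrays unless stated otherwise.

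Respiratory chain probesets varied little between mice. The median SD within a group was 0.107 over the 134 expressed probesets, against 0.213 over all expressed probesets. The members were also brighter, with a median level of 11.46 against 7.623, and the spread was not compared at equal level. Complex I held 61 probesets of 32 genes, complex II 7 of 4, complex III 14 of 9, cytochrome c 3 of 1, complex IV 22 of 10 and ATP synthase 27 of 17. The brightest probeset of each was Ndufb5 at 12.42, Sdhb, the iron-sulphur subunit, at 12.06, Uqcrb at 13.23, Cycs at 13.18, Cox6a1 at 13.55 and Atp5g3, which encodes the membrane ring of ATP synthase, at 13.32. These are levels of different probes and have no order among them. Some of the brightest probesets hardly moved. Atp5g3 had group means from 13.30 to 13.34 over the 8 groups, and Cyc1, the cytochrome c1 of complex III, from 12.30 to 12.35.

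Probesets of tissue isoforms were checked against the limit for expression. As probes differ in strength, this does not show which version of a subunit the intestine used. For the heart and muscle forms Cox6a2 and Cox8b and the testis forms Cox7b2 and Cox8c no probeset was expressed, and neither was the one for Ndufa4l2, with group means from 1.97 to 2.27. Their widely expressed counterparts were all expressed, Cox6a1 at 13.55, Cox6b1 at 13.52, Cox8a at 10.04 and Ndufa4 at 11.11, the last of which is now placed in complex IV despite its name. Atp5g1 and Atp5g2, which encode the same ring protein as Atp5g3, read 11.31 and 10.95. An exception was Cox7a1, the heart and muscle form of subunit 7a, whose group means ran from 10.41 to 10.78 beside 12.89 to 13.00 for Cox7a2. Cox6b2, the testis form of subunit 6b, lay just under the limit with a highest group mean of 4.77 after WY14643 in wild-type mice. Its 4 arrays there read 4.03, 4.3, 5.42 and 5.32, and no array outside the WY14643 groups exceeded 4.03. Just under the limit too were second probesets for Cox7c at 4.99 and Ndufa12 at 4.67, and just over it were Cox7c at 5.75, Ndufs4 at 5.84 and Atp5c1 at 6.44, each as its highest group mean.

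The mean over all 134 probesets lay close together in every group. After WY14643 the 4 wild-type arrays read 11.333, 11.212, 11.367 and 11.365 and the 4 null arrays 11.397, 11.307, 11.371 and 11.346. After OA the wild-type arrays read 11.300, 11.219, 11.222 and 11.265 and the null arrays 11.298, 11.258, 11.280 and 11.330. The groups overlapped in both cases, and over all 8 groups the means ran from 11.252 ± 0.039 (SD, n = 4) in wild-type mice after OA to 11.355 ± 0.038 (SD, n = 4) in null mice after WY14643. The same mean over 31 probesets of 20 fatty acid oxidation genes separated the genotypes after WY14643, with 10.840 ± 0.177 (SD, n = 4) for wild-type against 9.669 ± 0.081 (SD, n = 4) for null arrays and no overlap. After DHA the wild-type arrays averaged 10.141 ± 0.103 (SD, n = 5) and the null arrays 9.584 ± 0.028 (SD, n = 4), again without overlap.

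**Figure D1:**
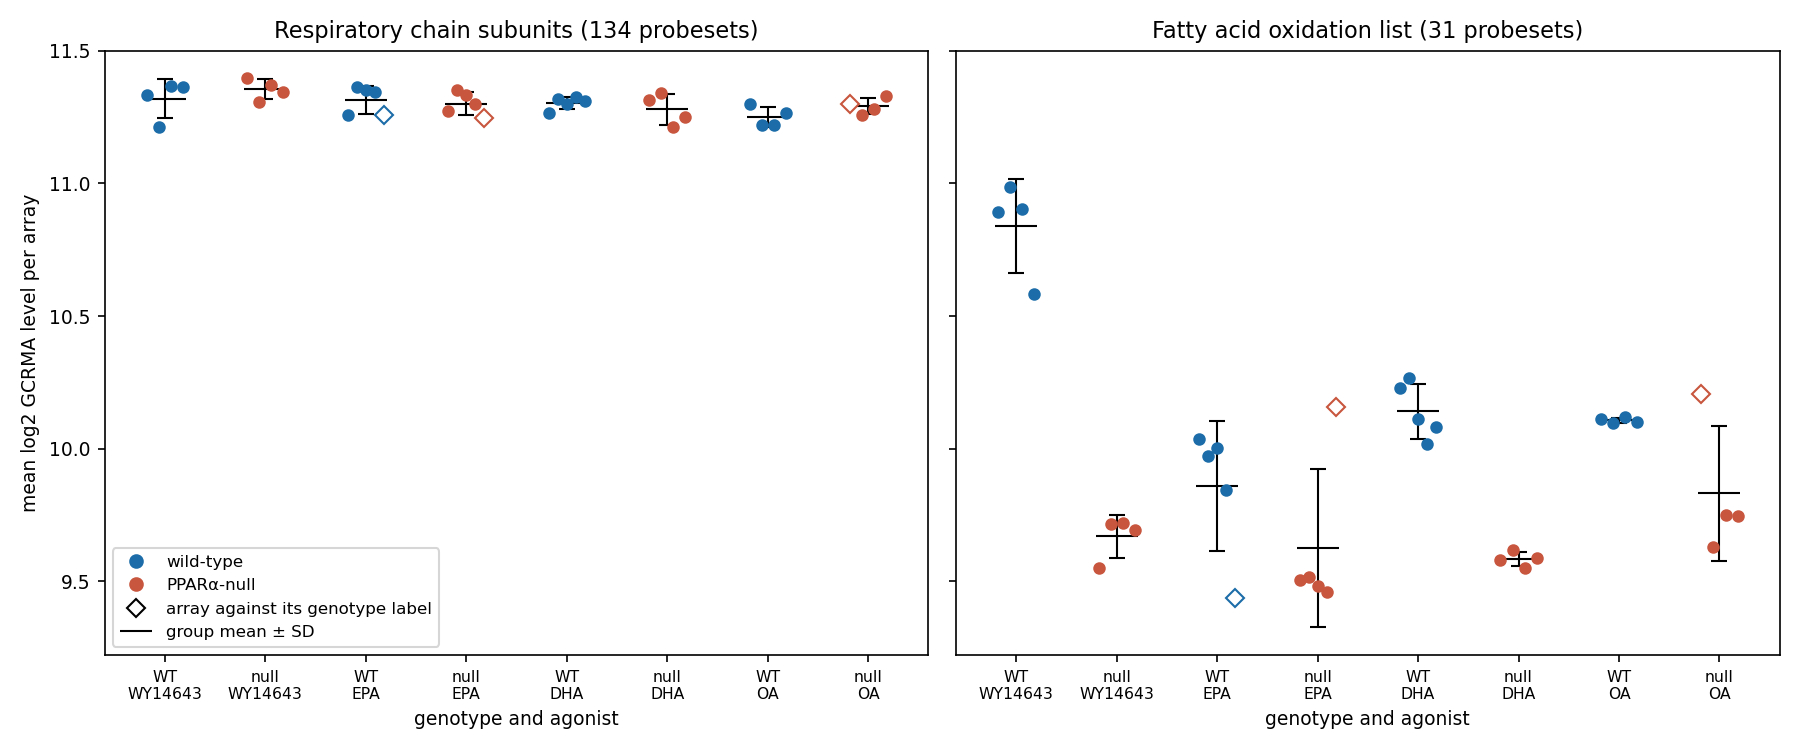
Mean log2 level per array of the 134 respiratory chain probesets (left) and of the 31 probesets of the fatty acid oxidation list (right), by genotype (WT, wild-type; null, PPARα-null) and agonist. Each point is 1 mouse, open diamonds are the 3 arrays that went against their genotype label, and lines are group means ± SD. The respiratory chain means stay between 11.212 and 11.397, whereas the fatty acid oxidation means reach from 9.438 to 10.986.

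The first question was whether wild-type and null mice differed after the synthetic agonist. After WY14643, 0 of 134 respiratory chain probesets differed at an adjusted p under 0.05 in limma, where 6.22% of all expressed probesets did (957 of 15384). Unadjusted, 5 of the 134 had a p under 0.05, beside 18.3% of all expressed probesets. The median difference, wild-type minus null, was -0.04 on the log2 scale over the respiratory chain and -0.043 over all expressed probesets. The groups did not overlap for 5 of the 134 probesets, against 14.1% of all expressed probesets.

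These counts came with narrow intervals. The 95% interval of the difference lay within 1.5-fold in either direction for 130 of the 134 probesets (97.0%), and for 65.3% of all expressed probesets, which vary more between mice. It lay within 1.2-fold for 100 of the 134. The 4 that were not bounded by 1.5-fold were dim probesets of Atp5c1, Cox7c and Atp5a1 and the single one of Ndufa4, with differences of -0.39, -0.23, -0.23 and 0.26. By complex the median differences were -0.06 for complex I, -0.09 for complex II, -0.02 for complex III, -0.03 for complex IV and -0.04 for ATP synthase. Cytochrome c had the only median above 0 among them, 0.19 over its 3 probesets.

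The 5 smallest unadjusted p-values after WY14643 belonged to Cycs on 2 probesets, Sdhb, Ndufc2 and Uqcrh, none of which passed the test. Sdhb read 12.13, 11.91, 12.11 and 12.14 in the wild-type mice and 12.27, 12.16, 12.23 and 12.20 in the null mice. The null mice were thus the higher ones, by 0.14 (SE 0.061), with an adjusted p of 0.192 in limma. Ndufc2, an accessory subunit of complex I, differed by -0.18 (SE 0.083, adjusted p = 0.23 in limma) and Uqcrh, the hinge protein of complex III, by -0.10 (SE 0.049, adjusted p = 0.243 in limma).

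On the same arrays 25 of the 31 fatty acid oxidation probesets, in 17 of 20 genes, were higher in wild-type mice and 0 were lower, with a median difference of 1.202. Etfdh, which hands electrons from fatty acid oxidation to ubiquinone, read 11.48, 11.57, 11.54 and 11.05 in wild-type and 9.92, 9.90, 10.09 and 9.98 in null mice. The groups were far apart, with a difference of 1.44 (SE 0.13), or 2.71-fold, and an adjusted p of 9.95e-09 in limma. Slc25a20, which carries acylcarnitines into the mitochondrion, was 6.87-fold higher, Eci1, an enoyl-CoA isomerase, 6.22-fold and Hadha, a subunit of the trifunctional protein, 3.02-fold. Cpt1a, which controls entry of fatty acids into oxidation, was 2.69-fold higher, and Etfa and Etfb, the flavoprotein subunits themselves, were 1.22-fold and 1.80-fold higher. Echs1, Acads and all 3 probesets of Hadh did not pass.

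Among the other steps of mitochondrial energy conversion most probesets were not called either. Of 31 probesets of 15 citric acid cycle genes 0 were called in limma after WY14643, with 4 at an unadjusted p under 0.05 and a median difference of -0.01. Slc25a4, the ADP/ATP carrier that exports the ATP made by ATP synthase, was higher in wild-type mice on all 3 of its probesets, by 0.94 to 1.09. On one of them wild-type mice read 10.36, 10.43, 10.60 and 10.23 and null mice 9.50, 9.30, 9.35 and 9.33, a 2.05-fold difference with an adjusted p of 4.54e-08 in limma. Of 53 probesets for assembly factors 2 were higher and 0 lower (3.77%, below the 6.22% of all expressed probesets). They were Sco2, which delivers copper to complex IV, at 0.71 (SE 0.15) and Coa7 at 0.45 (SE 0.112). Cox4i1, a core subunit of complex IV whose symbol the selection did not reach, differed by -0.02 (SE 0.044).

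Of 27 probesets of 16 regulators of mitochondrial biogenesis 1 was called after WY14643 (3.7%, below the 6.22% of all expressed probesets). It was Esrra, a nuclear receptor that works with Ppargc1a on respiratory chain genes, which was lower in wild-type mice after WY14643 by 0.30 (SE 0.089, adjusted p = 0.0341 in limma). Ppargc1a, the co-activator of mitochondrial biogenesis, differed by -0.46 (SE 0.167, adjusted p = 0.1 in limma) there and, on the same probeset, by -0.52 (SE 0.158, adjusted p = 0.0444 in limma) after DHA. Pdk3, a kinase that switches off pyruvate dehydrogenase, was 1.93-fold higher in wild-type mice after WY14643, whereas Pdk4, another of these kinases, differed 4.17-fold without passing (adjusted p = 0.0554 in limma). Among cell type markers, 3 of 15 enterocyte probesets (Fabp1 on both probesets and Fabp2, fatty acid binding proteins) were higher and 3 of 8 enteroendocrine probesets (Chga, Chgb and Gip) were lower in wild-type mice. Of all expressed probesets 6.22% were called in either direction. The part of these markers in any respiratory chain value was not tested.

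**Figure D2:**
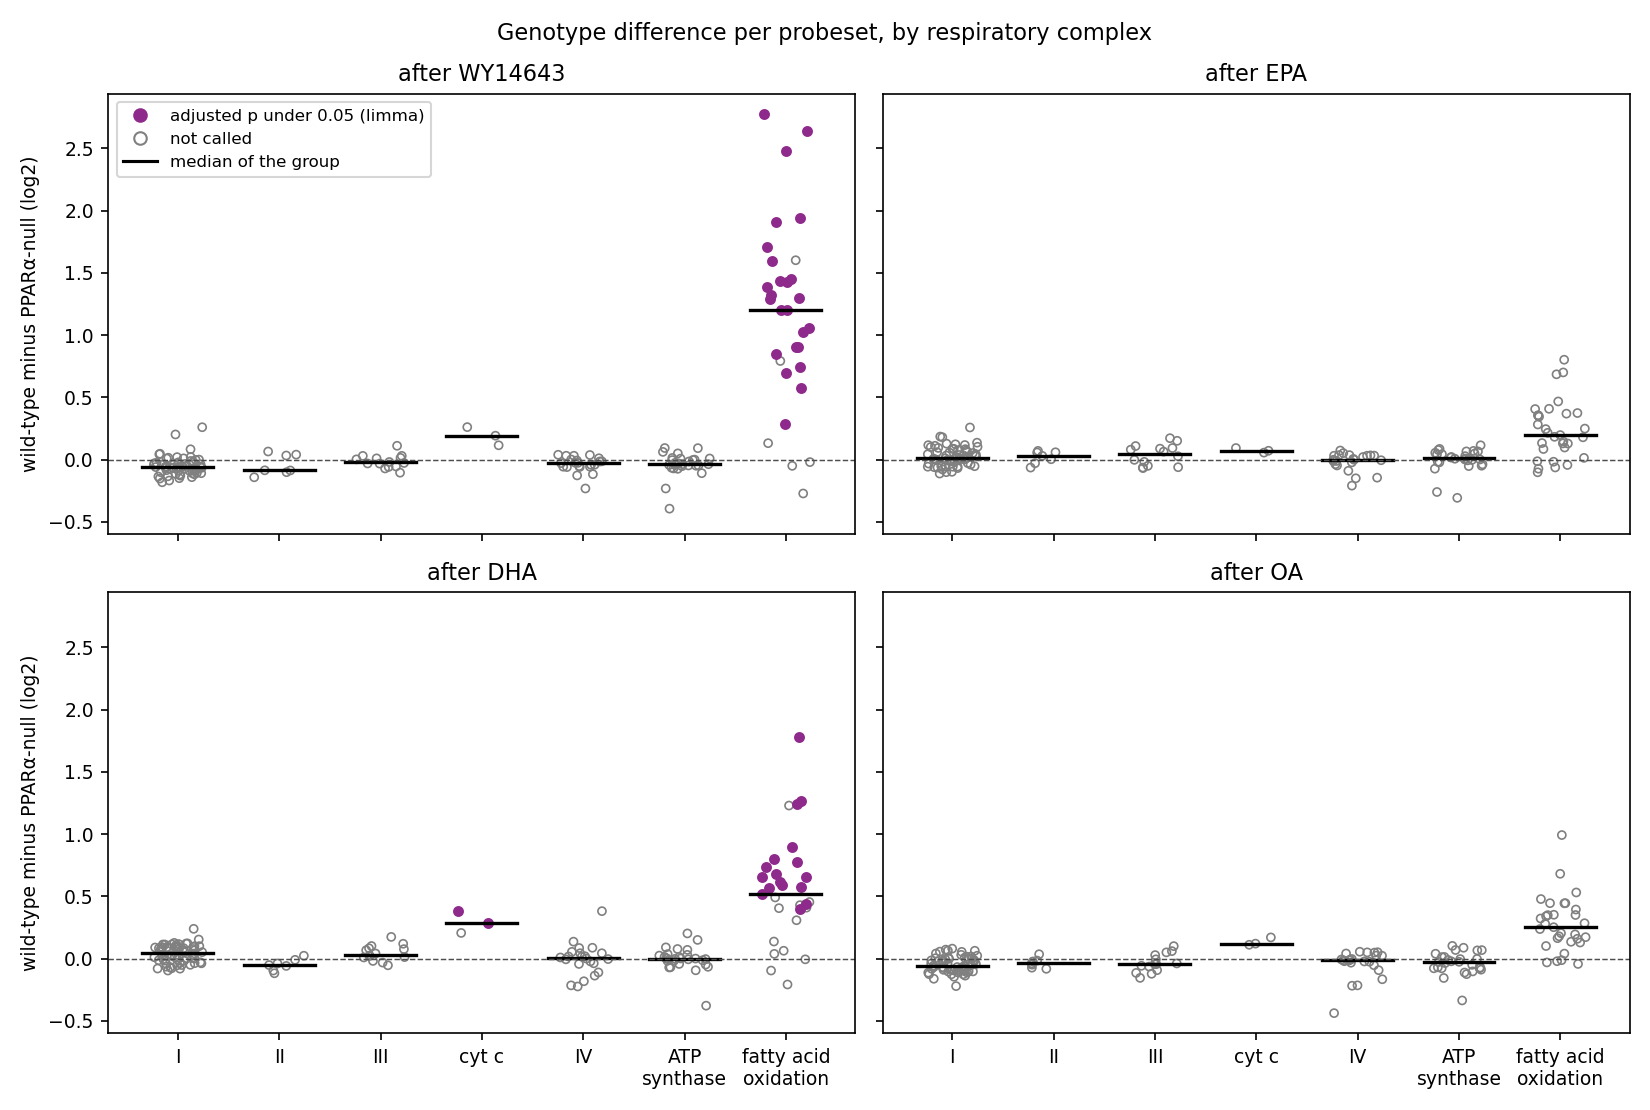
Wild-type level minus PPARα-null level (log2) of each expressed probeset after WY14643, EPA, DHA and OA, in columns by respiratory complex and, at the right, for the fatty acid oxidation list. Filled points had an adjusted p under 0.05 in limma, open points did not, and bars are medians. After WY14643 the fatty acid oxidation median is 1.202 and every complex has a median between -0.09 and 0.19.

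The same comparison was made after each fatty acid. After EPA 0 of 134 respiratory chain probesets were called, as were 0.0% of all expressed probesets, and 3 had an unadjusted p under 0.05 in limma, beside 8.77% of all. After OA 0 were called, against 0.351% of all expressed probesets, again with 3 at an unadjusted p under 0.05 in limma, beside 11.5% of all. The median differences were 0.02 and -0.04. The fatty acid oxidation list had 0 calls under both oils with all arrays kept, and without the 3 arrays that went against their labels it had 14 and 10 probesets higher in wild-type mice, whereas the respiratory chain still had 0 of 134 in both. Backgrounds without those arrays were 1.64% after EPA and 1.4% after OA. At an unadjusted p under 0.05 there were then 4 respiratory chain probesets after EPA, beside 14.9% of all, and 7 after OA, beside 12.2%. By unadjusted p with all arrays, the leading members were Uqcrq of complex III after EPA, at 0.15 (SE 0.054, adjusted p = 0.428 in limma), and Ndufs7 of complex I after OA, at -0.22 (SE 0.08, adjusted p = 0.251 in limma). Without the 3 arrays Atp5j2 led after EPA, at 0.13 (SE 0.054, adjusted p = 0.238 in limma), and Atp5b, both of ATP synthase, after OA, at 0.18 (SE 0.063, adjusted p = 0.205 in limma).

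After DHA 2 of 134 probesets were called, against 6.19% of all expressed probesets, and both belonged to Cycs. At an unadjusted p under 0.05 there were 5, beside 21.3% of all. The median difference was 0.02, beside -0.01 over all expressed probesets, and the intervals of 130 of the 134 again lay within 1.5-fold. The fatty acid oxidation list had 17 of 31 probesets higher and 0 lower, with a median of 0.52, and the citric acid cycle 0 of 31 in limma with 1 at an unadjusted p under 0.05. The other members among the 5 smallest p-values were 2 probesets of Cox7a2l, lower in wild-type mice by 0.22 and 0.21 without passing (adjusted p = 0.124 and 0.146 in limma).

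Promoter windows are shown for Cycs, the one member gene called between genotypes, and for Cox7a2l, the one with the largest called difference between WY14643 and OA in wild-type mice, to show which letters of known regulators stand before them. Each window holds 250 bases before and 50 after the transcription start, 5′ to 3′ on the gene's strand, from RefSeq on GRCm38.p6. Capitals in the Cycs window mark a cyclic AMP response element, TGACGTCA, whose first base lies at -169 relative to the start, and GCATGCGC, the shorter core of the NRF1 motif, at -60. The Cox7a2l window held none of the motifs searched.
Cycs, chr6:50566520-50566819, minus strand: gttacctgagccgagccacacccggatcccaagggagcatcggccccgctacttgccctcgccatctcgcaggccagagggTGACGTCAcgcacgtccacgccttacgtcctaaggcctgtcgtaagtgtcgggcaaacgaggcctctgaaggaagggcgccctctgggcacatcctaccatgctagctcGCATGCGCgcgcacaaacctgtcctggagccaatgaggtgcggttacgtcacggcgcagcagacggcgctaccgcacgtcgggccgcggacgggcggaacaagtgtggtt
Cox7a2l, chr17:83514284-83514583, minus strand: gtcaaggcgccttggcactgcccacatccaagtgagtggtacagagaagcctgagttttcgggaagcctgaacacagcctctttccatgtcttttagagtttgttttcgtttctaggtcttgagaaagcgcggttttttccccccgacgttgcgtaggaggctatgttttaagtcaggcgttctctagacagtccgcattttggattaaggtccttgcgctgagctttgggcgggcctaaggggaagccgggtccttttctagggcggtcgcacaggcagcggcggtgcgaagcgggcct

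The same motifs were searched on both strands in the 67 windows of the 62 expressed respiratory chain genes that the table holds, and in 9064 windows of genes expressed on the arrays. NRF1, a factor known for driving nuclear genes of mitochondria, had its full motif, GCATGCGC with GC directly before it, in 4 of 67 windows (5.97%), beside 2.12% of the 9064. GCATGCGC alone, which includes those, was in 14.9% and 5.24%, and it was searched only after the full motif had not been found in the Cycs window. The motif of the oestrogen-related receptors, TCAAGGTCA, was in 2 windows (2.99%), beside 0.21%, and the GABPA core CCGGAAG in 25.4%, beside 18.3%. TGACGTCA was in 4 windows (5.97%), beside 3.08%. In the 19 windows of the fatty acid oxidation list the full NRF1 motif was in 5.26% and GCATGCGC in 15.8%, near the respiratory chain shares. CCGGAAG was in 10.5% of them, and TCAAGGTCA and TGACGTCA were in 0. The PPAR response element, AGGTCA repeated in the same direction after 1 base of any kind, was in 0 of 67 respiratory chain windows and in 0 of 19 windows of the fatty acid oxidation list, beside 0.0331% of the 9064. A match is a stretch of letters and not a site shown to be bound.

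Cycs encodes somatic cytochrome c, the soluble electron carrier between complexes III and IV, which also takes part in apoptosis when it leaves the mitochondrion. Its 3 probesets had mean levels of 12.21, 13.12 and 13.18 over all arrays and are named by them here. After DHA the probeset at 12.21 read 12.42, 12.26, 12.47, 12.47 and 12.55 in wild-type mice and 12.01, 12.25, 11.77 and 12.17 in null mice. The groups did not overlap, but the lowest wild-type and the highest null array were next to each other. The difference was 0.39 (SE 0.099), or 1.31-fold, with a 95% interval from 0.18 to 0.59 and an adjusted p of 0.0174 in limma. The probeset at 13.12 differed by 0.28 (adjusted p = 0.0365 in limma), and the one at 13.18 by 0.21 without passing (adjusted p = 0.0882 in limma). No Cycs probeset passed without null DHA replicate 3 or without wild-type DHA replicate 5, with adjusted p-values in limma of 0.141 and 0.0585 for the probeset at 12.21.

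After WY14643 the probeset at 12.21 read 12.12, 12.02, 12.19 and 12.07 in wild-type mice and 11.98, 11.82, 11.86 and 11.69 in null mice. Wild-type mice were again the higher ones without overlap, by 0.26 (SE 0.104, adjusted p = 0.148 in limma), and the probeset passed with an adjusted p of 0.0459 in limma when the model held the 2 WY14643 groups alone. After OA it read 12.39, 12.34, 12.45 and 12.30 in wild-type mice and 11.99, 12.27, 12.27 and 12.27 in null mice, which did not overlap either, and the lowest null value was that of an array against its label. After EPA the wild-type values ran from 12.06 to 12.63 and the null values from 12.09 to 12.36, and these groups overlapped. The genotype difference after DHA exceeded that after OA by 0.22 without passing (95% interval -0.08 to 0.51, adjusted p = 0.923 in limma). Without the 3 arrays against their labels it was 0.28 with an interval from 0.003 to 0.567, which left out 0, and an adjusted p of 0.614 in limma. The Cycs genotype differences themselves were then 0.15 after EPA and 0.10 after OA, with adjusted p-values of 0.492 and 0.758 in limma.

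**Figure D3:**
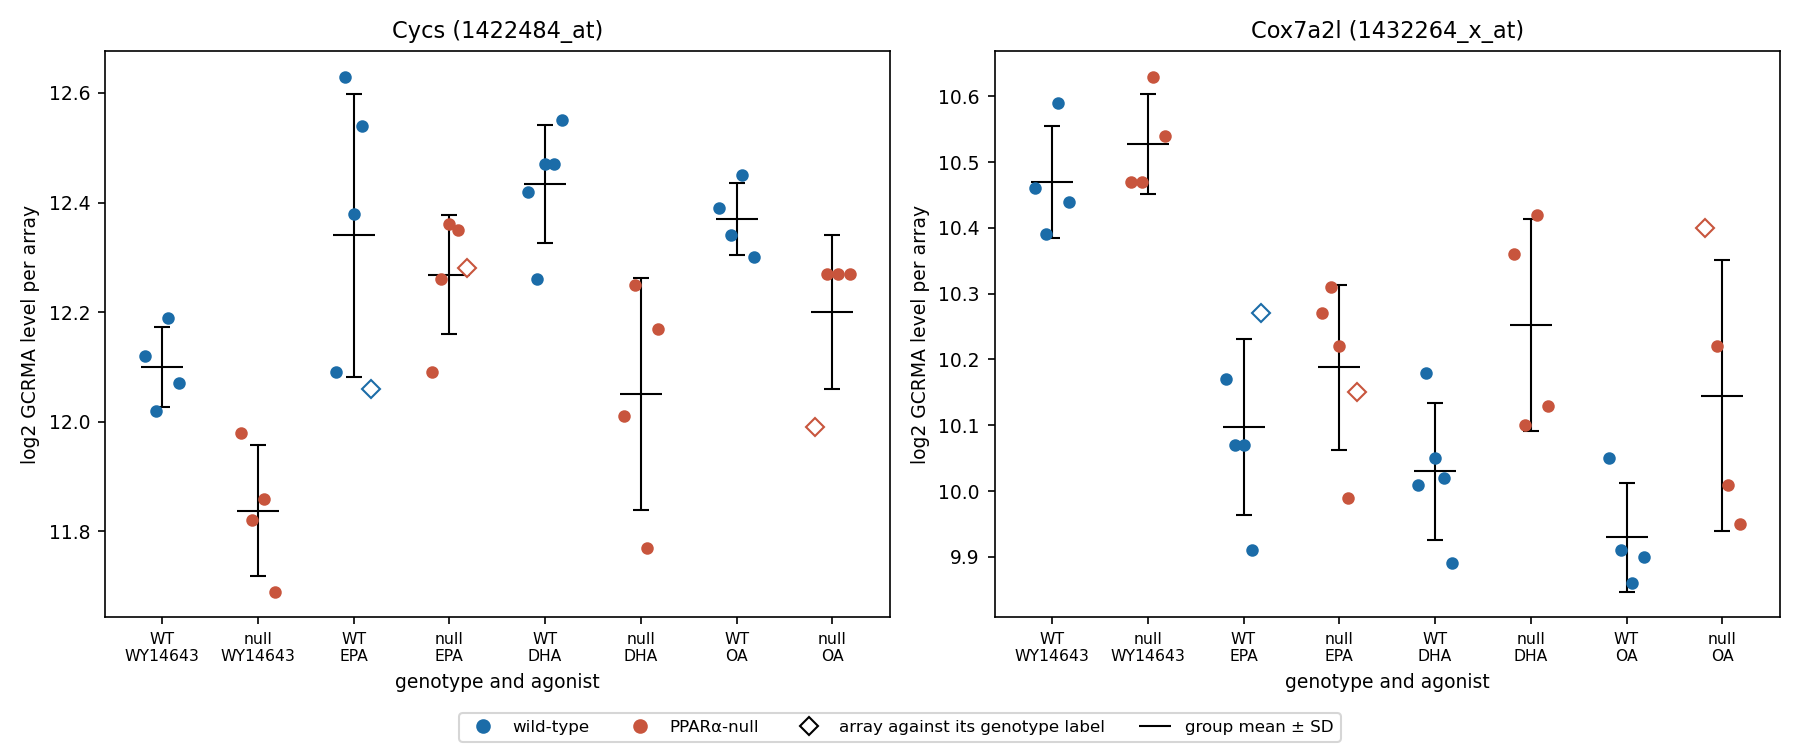
Log2 level per array of Cycs (the probeset with mean level 12.21, left) and Cox7a2l (the one with mean level 10.20, right) by genotype and agonist. Each point is 1 mouse, open diamonds are arrays that went against their genotype label, and lines are group means ± SD. Cycs has its lowest group mean, 11.84, after WY14643 in null mice, and the Cox7a2l values after WY14643, from 10.39 to 10.63, lie above all other arrays but null DHA replicate 3 at 10.42 and null OA replicate 1 at 10.40.

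The second comparison set WY14643 against OA within each genotype. In wild-type mice 15 of 134 respiratory chain probesets were called, 12 higher and 3 lower after WY14643, against 28.1% of all expressed probesets (13.4% higher and 14.7% lower). In null mice it was 16 of 134, 13 higher and 3 lower, against 25.3% (14.6% and 10.7%), and 20 of 134 against 24.5% without the array that went against its label. The groups did not overlap for 13 of the 134 in wild-type and 16 in null mice, against 29.7% and 25.1% of all expressed probesets. The median differences were 0.06 in both genotypes, beside -0.01 and 0.04 over all expressed probesets. The changes were small. The intervals lay within 1.5-fold for 127 of the 134 in wild-type and 131 in null mice, and within 1.2-fold for 83 and 71. The wild-type count was 7 without WY14643 replicate 1, 6 without WY14643 replicate 3 and 8 without OA replicate 2, and the null count was 10 without OA replicate 3.

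Of the called probesets 9 were shared between the genotypes, which was 60.0% of those in wild-type and 56.2% of those in null mice, and all 9 had the same sign. They belonged to Cox7a2l, Cox7a1, Sdha, Ndufa1, Ndufa6 and Cycs. How often calls were shared among all expressed probesets was not counted, so these percentages have no background and show nothing particular to the members. Without the 3 arrays against their labels 11 were shared, all 11 with the same sign. That was 61.1% of the 18 called in wild-type mice and 55.0% of the 20 called in null mice. Of all expressed probesets 28.9% were then called in wild-type and 24.5% in null mice, which are shares of calls and not of sharing. The 11 held the same 9 and a further probeset each of Cycs and Atp5a1. The groups compared in the 2 genotypes share no array. Across the 134 probesets the 2 differences had a Pearson r of 0.75 and a Spearman rho of 0.52, and across all expressed probesets 0.68 and 0.73, so the members lay above the rest by the first measure and below by the second. These values describe these arrays only, as probesets are not independent. The difference between the genotypes in this response was called for 0 of 134 probesets in limma, with 0 at an unadjusted p under 0.05, against 1.07% and 9.01% of all expressed probesets. Without the 3 arrays it was called for 0 of 134 with 1 at an unadjusted p under 0.05, against 1.02% and 7.93%. It was called for 15 of the 31 fatty acid oxidation probesets, and for 16 without those arrays, each with the higher difference in wild-type mice.

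Cox7a2l, a relative of Cox7a2 that joins complexes III and IV into supercomplexes, had the largest difference among the wild-type calls. Its probeset with a mean level of 10.20 read 10.46, 10.39, 10.59 and 10.44 after WY14643 and 10.05, 9.91, 9.86 and 9.90 after OA in wild-type mice, 2 sets of values well apart. The difference was 0.54 (SE 0.092), or 1.46-fold, with an adjusted p of 6.88e-05 in limma. In null mice it read 10.47, 10.47, 10.63 and 10.54 after WY14643 and 10.40, 10.22, 10.01 and 9.95 after OA, where the highest OA value was that of an array against its label. The difference was 0.38 (SE 0.092, adjusted p = 0.00296 in limma), and 0.47 without that array. The other 2 probesets gave 0.50 and 0.51 in wild-type and 0.38 and 0.35 in null mice. After EPA and DHA the group means of the same probeset, 10.03 to 10.25, stayed below those after WY14643, 10.47 and 10.53.

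Cycs moved the other way. In wild-type mice the probeset at 13.12 read 13.01, 12.95, 13.03 and 12.98 after WY14643 and 13.31, 13.19, 13.27 and 13.18 after OA, a fall of 0.25 (SE 0.087, adjusted p = 0.034 in limma). In null mice it read 13.01, 12.75, 12.79 and 12.64 after WY14643 and 12.98, 13.11, 13.19 and 13.19 after OA, a fall of 0.32 (SE 0.087, adjusted p = 0.00795 in limma). The null groups overlapped only through null OA replicate 1, the array against its label, and the fall was 0.37 without it. All 3 Cycs probesets were called in null mice and 2 in wild-type mice, where the probeset at 12.21 differed by -0.27 with an adjusted p of 0.0511 in limma.

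Sdha, Ndufa6, Ndufa1 and Cox7a1 were called in both genotypes too. Sdha, the flavoprotein of succinate dehydrogenase and so a citric acid cycle enzyme too, read 11.21, 11.06, 11.31 and 11.19 on one of its 2 expressed probesets after WY14643 and 10.99, 10.92, 10.93 and 11.05 after OA in wild-type mice, just without overlap. Its rise was 0.22 (SE 0.072) there and 0.29 (SE 0.072) in null mice. Ndufa6, an accessory subunit of complex I, rose by 0.28 (SE 0.086) and 0.35 (SE 0.086), Ndufa1 by 0.17 and 0.16, and Cox7a1 by 0.32 and 0.36.

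Further members were called in 1 genotype. Wild-type mice had rises of Ndufb11 (0.24), Atp5o (0.20), Atp5g2 (0.20), Atp5a1 (0.15) and Atp5h (0.14), and a fall of 0.21 in Ndufb6. Null mice had rises of Ndufb9 (0.22), Sdhb (0.20), Uqcrh (0.16) and Atp5c1, at 0.17 on its bright and 0.74 on a dim probeset. These genes are not shown to differ between the genotypes, since the difference passed for none of the 134. Without the 3 arrays Atp5a1 was called in null mice too, as were Atp5b and Ndufv1. A second probeset of Ndufb6, an accessory subunit of complex I, differed by -0.38 in wild-type mice without passing (adjusted p = 0.0559 in limma), and passed at 0.0352 in limma without the 3 arrays, where the first one missed at 0.0517.

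**Figure D4:**
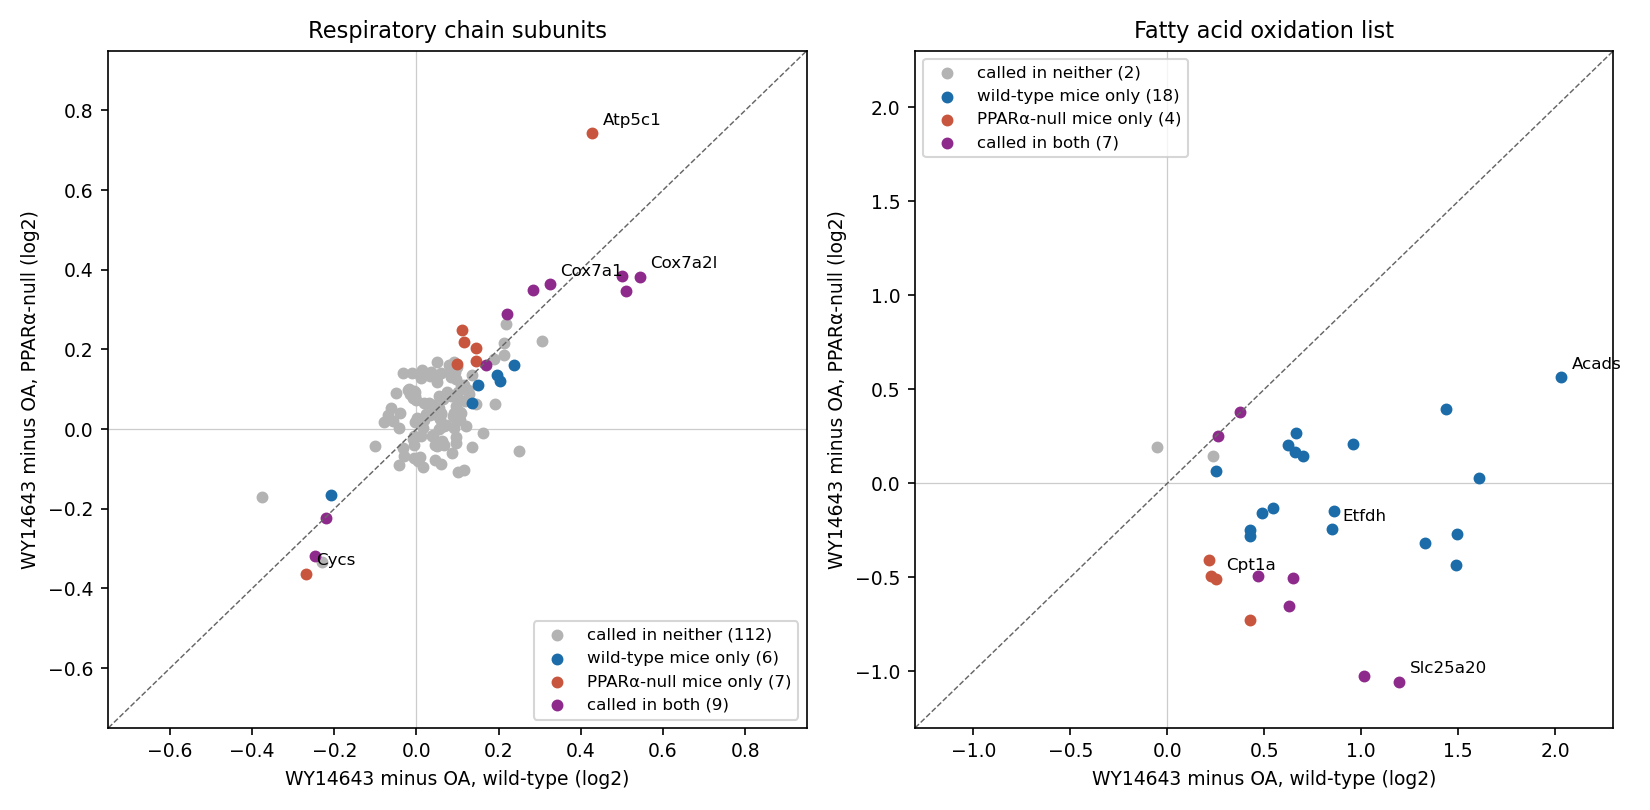
Difference between WY14643 and OA (log2) in wild-type mice, horizontal axis, and in PPARα-null mice, vertical axis, for the 134 respiratory chain probesets (left) and the 31 probesets of the fatty acid oxidation list (right). Each point is a probeset, coloured by the genotype in which it was called in limma, and the dashed line marks equal differences. All arrays are kept, also the one in the null OA group that went against its label. The 9 respiratory chain probesets called in both genotypes lie on the same side of 0 in both. With that array kept, Slc25a20 is higher after WY14643 in wild-type and lower in null mice, and its null value without the array is not given here.

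The fatty acid oxidation list on these arrays had 25 of 31 probesets higher and 0 lower after WY14643 in wild-type mice, median 0.63, and 2 higher and 9 lower in null mice, median -0.16. Without the array against its label the null counts were 5 higher and 9 lower, with a median of -0.003. Crypt proliferation markers moved in the same comparisons, with 5 of 8 probesets lower in wild-type and 4 of 8 in null mice. Of all expressed probesets 14.7% and 10.7% were lower. The summed linear level of the crypt markers was 6963 to 7542 after WY14643 and 7798 to 8311 after OA in wild-type mice, and 7390 to 8137 and 7591 to 8192 in null mice. Pancreatic acinar markers were lower on 10 of 10 probesets in null mice, beside 10.7% of all, and on 0 of 10 in wild-type mice, beside 14.7%. Their summed level in null mice was 2381 to 15375 after WY14643 and 65639 to 137854 after OA. The part of either marker list in the respiratory chain differences was not tested.

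Other genes of mitochondria were called in the same comparison, in both directions. Of 53 assembly factor probesets 3 were higher and 10 lower in wild-type mice (24.5%, below the 28.1% of all expressed probesets), and 1 higher and 10 lower in null mice (20.8%, below the 25.3% of all). The null counts were 2 and 7 without the array against its label. Ndufaf4, needed to assemble complex I, fell by 0.55 (SE 0.141) in wild-type and by 0.76 (SE 0.141) in null mice, and Cox18, which inserts a complex IV subunit into the membrane, by 0.43 and 0.52. Surf1, an assembly factor of complex IV, rose by 0.25 and 0.24. Of 27 regulator probesets 7 were higher and 6 lower in wild-type mice, and 5 higher and 2 lower in null mice (48.1% and 25.9%), with Ppargc1a higher on 4 and 3 probesets, by 0.83 to 1.09 and by 0.55 to 0.81. Of 31 citric acid cycle probesets 3 and 5 were higher and 0 lower in limma (9.68% and 16.1%, both below the share of all), among them Ogdh and Dlst, subunits of the oxoglutarate dehydrogenase complex, in both genotypes. Slc25a4 was 1.64-fold higher after WY14643 in wild-type mice. In null mice it differed by -0.25 (SE 0.106, adjusted p = 0.0758 in limma) with the array against its label kept.

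EPA and DHA were compared with OA at the same volume and time. The 3 fatty acids differ in chain length and number of double bonds. In wild-type mice 0 of 134 respiratory chain probesets were called in limma after EPA, against 6.06% of all expressed probesets, and 0 after DHA, against 3.4%, with 14 and 4 at an unadjusted p under 0.05, beside 18.4% and 14.1%. In null mice 0 were called after either, against 2.2% and 0.923%, with 3 and 7 at an unadjusted p under 0.05, beside 14.2% and 12.5%. The intervals lay within 1.5-fold of OA for 131 to 133 of the 134 probesets in each of these 4 comparisons. The nearest to a call was Sdhb after EPA in wild-type mice, at 0.18 (SE 0.057, adjusted p = 0.0567 in limma).

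DHA against OA in wild-type mice holds none of the 3 arrays against their labels, and the other 3 comparisons were repeated without them. Each again had 0 of 134 called in limma, against 5.07% after EPA in wild-type mice and 2.28% after EPA and 1.25% after DHA in null mice. At an unadjusted p under 0.05 there were 21, 6 and 14 in that order, beside 17.6%, 13.8% and 14.0% of all expressed probesets. All 21 after EPA in wild-type mice were higher than after OA, by 0.11 to 0.368. All 6 after EPA in null mice were higher too, by 0.123 to 0.282. The direction among all expressed probesets at this limit was not counted. Sdhb after EPA in wild-type mice then had an adjusted p of 0.104 in limma, and Uqcr10, a small subunit of complex III, came nearest to a call there, at 0.37 (SE 0.114, adjusted p = 0.0575 in limma). In null mice the leading member was Atp5a1, the alpha subunit of ATP synthase, under both oils, at 0.17 (SE 0.066, adjusted p = 0.197 in limma) after EPA and 0.23 (SE 0.066, adjusted p = 0.081 in limma) after DHA. Other probesets of Atp5a1 differed by 0.082 and -0.215 after EPA in these mice (adjusted p = 0.496 and 0.791 in limma). The intervals lay within 1.5-fold for 130 or 131 of the 134.

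The genotype difference after EPA or DHA, set against that after OA, was called for 0 of 134 in each in limma, as for 0.0% of all expressed probesets, with 5 and 3 at an unadjusted p under 0.05, beside 5.47% and 5.7%. Without the 3 arrays it was again called for 0 of 134 in each in limma, against 0.0% and 0.013% of all expressed probesets, with 8 and 8 at an unadjusted p under 0.05, beside 5.07% and 8.07%.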

How the data were processed

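RNA of 35 small intestines was hybridised to Affymetrix mouse whole-genome arrays, 1 mouse per array. The deposited values are log2 GCRMA expression levels that the authors normalized; the GCRMA version is not given in the sources used here. Array medians lay between 2.83 and 2.88, and 31.62% to 32.38% of probesets exceeded level 32 (log2 5). The number of arrays limits the precision. Of 45101 probesets 64 were controls, and 34945 of the rest had 1 gene symbol, 932 several and 9160 none. Members with several symbols (9 probesets) were left out. Probesets ending in _x_at or _s_at may also read related transcripts. One limma model (version 3.58.1, R 4.3.3) with 8 group means and an intensity trend was fitted to the 15384 expressed probesets, with Benjamini-Hochberg adjustment over all of them and calls at 0.05, and was tested on simulated data. The methods' own threshold, an unadjusted p under 0.01, was an alternative, as were other filters, scalings, probeset choices, arrays left out and the replicate number as a block. Replicate numbers were not taken to pair the arrays, since same-numbered arrays did not deviate together in every pair. The members, gene lists and naming rule were chosen with earlier results of these data known. Named were the called members with the largest differences, otherwise those of smallest p, the brightest member of each complex, tissue isoforms, and list genes called between genotypes.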

Additional observations from a re-analysis of the deposited data

Results flagged for a closer look

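In 6 of 64 groups of values examined (8 groups of mice for each measure), 1 array stood far from the rest of its group. About 1 group in 20 does so by chance. For the Cycs probeset with mean level 12.21, null OA replicate 1 read 11.99 beside 12.27 in each of the other 3 arrays. For the one at 13.18, null OA replicate 1 read 13.05, wild-type WY14643 replicate 2 read 13.02 and wild-type DHA replicate 2 read 13.1, each below its group. The mean of the fatty acid oxidation list was low, at 9.55, in null WY14643 replicate 1 and high, at 10.16, in null EPA replicate 5. Null OA replicate 1 and null EPA replicate 5 are arrays that went against their genotype label.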

How the results depend on the processing

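The median difference over the respiratory chain moved by less than the spread between mice, an SD of 0.064, in every comparison under every alternative run. The medians printed above for all members were themselves about that size or smaller, so this limit does not show whether their signs held. Counts of called members moved as follows. Between genotypes after WY14643 the count of 0 became 1 (Cycs) with only the groups compared in the model. At an unadjusted p under 0.01 it was 1 after EPA, 1 after OA, 2 for EPA against OA in wild-type mice and 1 for the genotype difference after EPA minus after OA. Between genotypes after DHA the count of 2 became 1 without the filter on low values, 0 when the model held the compared groups alone, 0 with 1 probeset per gene and 1 when the trend was dropped, and it ran from 0 to 3 when each replicate was left out. For WY14643 against OA, the wild-type count of 15 became 8 without the filter and 8 with 1 probeset per gene, where fewer probesets are counted, and ran from 6 to 20 with a replicate left out. The null count of 16 became 9 with 1 probeset per gene and ran from 10 to 21. For EPA against OA in wild-type mice it ran from 0 to 1. The cause of the other shifts was not tested. The Cycs genotype difference after EPA (probeset at 12.21) was -0.001 without wild-type EPA replicate 2 and ran up to 0.143 with other replicates left out. With the replicate block the count was 1 between genotypes after DHA and 1 for EPA against OA in wild-type mice. Correlations of same-numbered arrays were 0.09 to 0.55 after WY14643, where 5 of 8 arrays were closest to their own number, and -0.44 to 0.27 after the fatty acids, so the numbers were not taken to pair the arrays.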
